A study of Gallus gallus with 7 samples.

Results

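Steady partly methylated tiles were 500-bp windows of the chicken genome whose cytosines carried an intermediate level of methylation that differed little among pools of untreated chicks. They were chosen from the measured values themselves. A tile was kept when at least 10 of its cytosine positions had a value in all 7 libraries, when its mean over the 4 Non-Conditioned libraries was 30 to 70%, and when the highest and lowest of those 4 library values lay at most 12 percentage points apart. This kept 1071 of 11250 tiles with at least 10 such positions (9.52%), and 53.2% of the 2015 tiles with a Non-Conditioned mean in that window. The other 944 partly methylated tiles had a wider Non-Conditioned range and served as the closest comparison. The small Non-Conditioned spread of the 1071 tiles was therefore fixed by the choice, whereas the 3 Conditioned libraries and the differences between positions inside a tile took no part in it.

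The study measured DNA methylation in microglia, the resident immune cells of the brain, which were sorted from the anterior hypothalamus, a region that regulates body temperature. Conditioned chicks (3 libraries, numbered 1-2, 3 and 4) had been kept at 39 °C for 24 h on day 3 after hatching. Non-Conditioned chicks (4 libraries, numbered 1 to 4) had not. DNA from both groups was taken at day 10, before any immune challenge, with hypothalamic cells of 10 to 12 chicks pooled for a sort, so a library averages over many animals and the labels do not say what the double number 1-2 stands for. The purity of the sorted cells could not be checked because the files hold methylation values and no expression.

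In vertebrate genomes most cytosines followed by a guanine (CpG sites) are methylated, and CpG-dense regions, often at promoters, are usually free of the mark. Maintenance methyltransferase copies the mark to the new strand after replication, so that both cytosines of a CpG usually share one state. An intermediate tile mean can therefore arise in several ways: every position may be methylated in part of the DNA molecules, as happens when cells of a pool or both parental copies differ, or fully methylated and unmethylated positions may lie side by side, as at the edge of a CpG island. Reduced representation bisulfite sequencing reads CpG-rich restriction fragments and gives, for each cytosine, the percentage of reads that were methylated. That percentage cannot tell cells, parental copies and sampled molecules apart.

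The site table held 1048575 cytosine positions on chromosomes 1, 10 to 13 and the first part of chromosome 14 (build galGal5), where it ends at the row limit of spreadsheet software, of which 513180 had a value in every library. The tiles studied here contained 27946 of these common positions, or 5.45%. The number of reads behind a value was not given, so depth is unknown and no counting interval can be set on a single percentage. Over all 11250 tiles the mean level was 22.6 ± 2.39% in Conditioned libraries (SD, n = 3) and 23.7 ± 0.525% in Non-Conditioned libraries (SD, n = 4), and most tiles outside the chosen set were low, 7299 of them steady below 30%. Nothing in the labels shows that libraries of one group came from separate hatches, so tests between groups measure the spread between these pools, which may be technical.

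The tiles had a median of 18 CpGs in the table, close to the 15 of wider-range tiles and the 15 of steady tiles above 70%, and far from the 41 of steady tiles below 30%. They had a median of 19 common positions (quartiles 13 and 32, range 10 to 148), against 15 in partly methylated tiles of wider range, 44 in steady tiles below 30% and 16 in steady tiles above 70%. The number of positions bore on which tiles passed: the steady tiles were 43.3% of partly methylated tiles with 10 to 14 positions, 53.5% of those with 15 to 24 and 67.1% of those with 25 or more. A mean over more positions averages out more of the noise of single values, so the main comparisons with the wider-range tiles are also given within these bands. The Non-Conditioned range had a median of 7.74 points within the chosen set.

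Members lay close to each edge of the rule. The tile on chromosome 12, 3003001 to 3003500, entered with a Non-Conditioned mean of 30.0%, while 2550501 to 2551000 on the same chromosome stayed out at 29.99%. At the upper edge the tile on chromosome 1, 121642501 to 121643000, entered at 69.98%, while chromosome 11, 19659001 to 19659500, stayed out at 70.0005%. A range of 11.98 points admitted chromosome 1, 47877001 to 47877500, and one of 12.001 points kept out chromosome 14, 4812501 to 4813000. Exactly 10 positions were counted in 104 members, and 70 tiles with 9 positions met the level and range. The rule thus cuts through a continuous distribution.

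Positions within these tiles were mostly neither alike nor split into methylated and unmethylated ones. Each position was called low, middle or high when its mean over the 7 libraries was under 25%, 25 to 75% or over 75%. Of the 27946 positions, 17.2% were low, 66.5% middle and 16.4% high. A tile was called even when at least 80% of its positions were middle, which held for 287 tiles (26.8%, exact binomial 95% interval 24.2 to 29.6%), and mixed when at least 20% were low and at least 20% high, which held for 50 tiles (4.67%, interval 3.48 to 6.11%). The remaining 734 (68.5%) were intermediate, and they leaned to one side: 295 had at least 20% low positions, 324 had at least 20% high positions and 115 had under 20% of each. The intervals cover counting of tiles only, and the class sizes moved with the limits chosen. With low and high set at 20 and 80%, 52.3% of tiles were even and 2.15% mixed, and with 30 and 70% these shares were 10.6% and 11.2%. When 70% middle positions, or 25% low and 25% high, were asked for, 49.4% were even and 1.96% mixed. With 90% and 10% in those places 10.7% were even and 21.8% mixed.

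**Figure D1:**
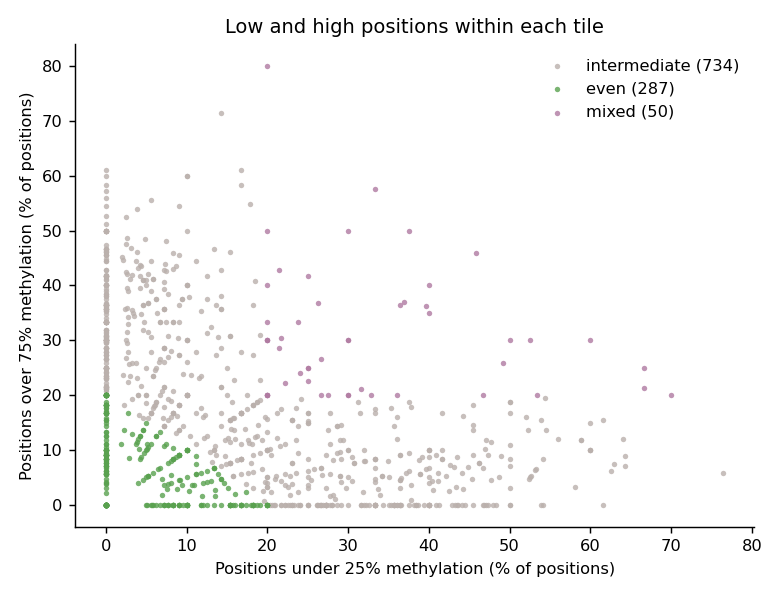
Share of positions under 25% methylation (x axis, % of a tile's positions) against the share over 75% (y axis) for the 1071 tiles, 1 point a tile, coloured by class. The 287 even tiles fill the lower left corner, the 50 mixed tiles the area above 20% on both axes, and the 734 intermediate tiles lie mainly along one axis or the other.

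The classes fix in part how far the positions of a tile reach, so these values only describe them. The lowest and highest position means in a tile had medians of 23.4% and 78.9% over even tiles, 12.6% and 89.6% over intermediate tiles, and 7.36% and 93.9% over mixed tiles. Only 33 even tiles had neither a low nor a high position. Even tiles were commonest where the level itself was central: 42.4% of 238 tiles at 40 to 50% and 40.2% of 256 tiles at 50 to 60%, against 12.96% of 270 tiles at 30 to 40% and 15.6% of 307 tiles at 60 to 70%. That follows in part from the position limits, since a tile near 30% has more positions close to 25%. Steady tiles were less often even than partly methylated tiles of wider range, of which 44.0% were even and 3.18% mixed. The order held within each band of positions. With 10 to 14 positions 36.9% of the steady tiles were even, against 49.7% of the wider-range tiles. The shares were 27.8% against 38.8% with 15 to 24, and 16.4% against 37.8% with 25 or more. This contrast may be partly set by the choice of tiles, so it only describes them. Position classes came from means over all libraries, including the Non-Conditioned ones whose disagreement defined the wider range. Averaging libraries that disagree can place a position in the middle class, and the bands of positions do not remove that.

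A measure that does not need class limits gave the same picture. The reproducible share of position variance was the covariance of position values between a Conditioned and a Non-Conditioned library, averaged over the 12 such pairs, divided by the variance that the tile would have if every position were at 0 or 100%. It is 0 for an evenly methylated tile and 1 for a full mix, and random error of single values does not add to it. It is also near 0 where position differences do not recur between the libraries of a pair. Its median was 0.137 (quartiles 0.091 and 0.202, range -0.0051 to 0.64). The median over tiles ranged from 0.127 to 0.145 among the 12 library pairs, with an SD of 0.006. At least 0.25 was reached by 152 tiles (14.2%) and at least 0.5 by 8. In wider-range tiles the median was 0.101, and 83 (8.79%) reached 0.25. With 10 to 14, 15 to 24 and 25 or more positions the medians were 0.127, 0.134 and 0.145 in steady tiles and 0.094, 0.115 and 0.105 in wider-range tiles. Non-Conditioned libraries enter each pair, so this contrast may also be partly set by the choice of tiles. Among members the median was 0.0796 in even, 0.157 in intermediate and 0.353 in mixed tiles, an order partly set by the class limits. It hardly varied with level, at 0.138, 0.143, 0.135 and 0.133 in the 4 bands running from 30 to 70%.

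The position differences that did exist recurred in both groups. Across the positions of a tile, the Conditioned mean and the Non-Conditioned mean correlated with a median Pearson r of 0.873 (quartiles 0.769 and 0.931), given as a description because neighbouring positions share reads. The median was 0.805 in even tiles and 0.955 in mixed tiles, and 0.770 in tiles of wider range. In the same 3 bands of positions it was 0.886, 0.875 and 0.862 in steady tiles and 0.780, 0.765 and 0.762 in wider-range tiles. The choice of tiles and the classes both used the Non-Conditioned libraries, which are one side of this correlation. Both contrasts may therefore be partly set by them, and the bands of positions do not remove that.

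High and low positions were arranged along the tile rather than between strands. Both cytosines of a CpG, 1 bp apart on opposite strands, had a median absolute difference of 5.24 points over 12291 CpGs. The tile mean of the second minus the first cytosine could be taken in 1061 members with at least 3 such pairs, and its absolute value had a median of 3.11 points and reached 20 points in 5 tiles (0.471%). The second cytosine was the higher one in 521 of the 1061 tiles. The largest strand difference, -33.3 points over 6 pairs, was on chromosome 1, 140024501 to 140025000, where the tile level was 39.7, 22.6 and 27.7% in the Conditioned libraries 1-2, 3 and 4, against 34.3, 26.6, 33.3 and 29.6% in the Non-Conditioned libraries 1 to 4.

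Positions differed more the farther apart they lay. Pairs of positions 1 bp apart differed by 9.17 points, pairs 2 to 10 bp apart by 16.5, 11 to 50 bp apart by 19.7, 51 to 150 bp apart by 22.4 and over 150 bp apart by 24.3 (medians over tiles of the mean absolute difference of single-position means). Not every tile had pairs in each class: the 5 medians rest on 1069, 1050, 1071, 1028 and 679 members, and the last one on 136 even and 35 mixed tiles, so the classes compare partly different tiles. In even tiles the increase stopped at 18.3 points in the last class, while in mixed tiles it went on to 47.7 points. The first 4 classes were 9.03, 14.9, 16.6 and 18.2 points in even tiles and 8.35, 14.8, 26.4 and 31.0 points in mixed tiles. The contrast of even and mixed tiles is partly set by how they were defined.

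Many of these profiles differed in mean level across a single break, though how well a single break fits a profile was not tested. The break that best split the positions was found in the Conditioned libraries, with at least 3 positions on each side, and the step across it was then measured in the Non-Conditioned libraries, which had not placed it. The absolute step had a median of 21.7 points, reached 20 points in 588 tiles (54.9%) and reached 40 points in 113. In wider-range tiles the median was 16.9 points, and 40.3% reached 20 points. By bands of 10 to 14, 15 to 24 and 25 or more positions, 49.0, 56.5 and 58.99% of the steady tiles reached 20 points, against 37.8, 42.9 and 42.2% of the wider-range tiles. The step was measured in the libraries whose spread chose the tiles, so this contrast only describes them. With the break placed in the Non-Conditioned libraries and the step measured in the Conditioned ones, 50.6% of the members reached 20 points. Among mixed tiles 47 of 50 (94.0%) had a step of at least 20 points with a median of 44.8. Among intermediate tiles 63.4% did, with a median of 24.4, and among even tiles 26.5%, with a median of 14.5. The class limits partly set this order, since the classes used the same positions and libraries. The side with the higher coordinates was the more methylated one in 526 of the 1071 tiles.

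The 4 mixed tiles with the highest reproducible share show the extreme of such profiles and not the typical one. Over all mixed tiles the median reproducible share was 0.353 and the median step 44.8 points. On chromosome 1, 15899001 to 15899500, 66 positions comprised 22 low, 6 middle and 38 high ones, and the reproducible share was 0.64. The break was placed at 385 bp, the next position after 166 bp with a value in all 7 libraries. Positions without a value in every library were not examined, so where the level changed between them is not known. The side before the break stood at 82.7% in Conditioned and 83.9% in Non-Conditioned libraries, and the side after it at 3.89% in Conditioned and 3.65% in Non-Conditioned libraries. The tile's intermediate level was thus the average of a methylated and a nearly unmethylated stretch, and the neighbouring tiles continued them at 89.5% and 3.03%.

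This tile had 60.9, 56.2 and 59.5% in the Conditioned libraries 1-2, 3 and 4, against 58.9, 59.9, 59.6 and 60.1% in the Non-Conditioned libraries 1 to 4. The groups overlapped, and Conditioned library 3 was the lowest. On chromosome 12, 3225001 to 3225500, 40 positions gave 43.2, 41.4 and 40.3% in Conditioned libraries and 42.4, 38.0, 40.4 and 38.6% in Non-Conditioned libraries. Its sides stood at 77.0% and 6.26% in Conditioned and 75.2% and 4.46% in Non-Conditioned libraries, so all 7 libraries again averaged a methylated and an unmethylated side.

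On chromosome 10, 20074501 to 20075000, 120 positions (59 low, 30 middle, 31 high) gave 40.3, 34.4 and 37.2% in Conditioned libraries and 36.5, 36.3, 38.1 and 37.4% in Non-Conditioned libraries. The sides of its break at 242 bp were at 69.3% and 3.13% in Conditioned and 68.5% and 3.38% in Non-Conditioned libraries. The fourth mixed tile had another layout. On chromosome 1, 65819001 to 65819500, low and high positions alternated among only 10 positions, and the best break left sides at 18.9% and 47.7% in Non-Conditioned libraries. Its level was 36.0, 37.5 and 40.6% in Conditioned libraries, against 32.3, 30.2, 36.0 and 34.6% in Non-Conditioned libraries, without overlap, though Conditioned 1-2 was only just above Non-Conditioned 3.

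The 4 even tiles with the lowest reproducible share had 10 to 17 positions and a reproducible share close to 0. On chromosome 13, 13177001 to 13177500, the 13 position means spanned 58.0 to 77.1%, and the tile had 75.2, 61.9 and 60.7% in Conditioned libraries, against 67.1, 65.2, 70.6 and 67.4% in Non-Conditioned libraries. On chromosome 11, 2042001 to 2042500 (10 positions), the values were 82.7, 57.4 and 75.0% in Conditioned and 55.4, 65.6, 64.3 and 61.9% in Non-Conditioned libraries. The Conditioned libraries lay on either side of all Non-Conditioned ones in the first tile, and in the second Conditioned 3 fell among them.

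The tile on chromosome 13, 16017001 to 16017500 (17 positions), had 69.8, 56.3 and 54.3% in Conditioned libraries, against 48.0, 50.1, 42.2 and 53.3% in Non-Conditioned libraries, without overlap. The tile on chromosome 1, 117830501 to 117831000 (11 positions), had 68.9, 41.3 and 54.0% in Conditioned and 61.7, 56.0, 67.9 and 61.9% in Non-Conditioned libraries. A share close to 0 did not always go with alike positions. In the tile on chromosome 13, 16017001 to 16017500, position means spanned 23.8 to 76.4%, with 1 low and 1 high position. Its Conditioned and Non-Conditioned profiles correlated at r = -0.030, so these differences did not recur in both groups. Conditioned library 1-2 was the highest of the 3 in all of these even tiles.

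**Figure D2:**
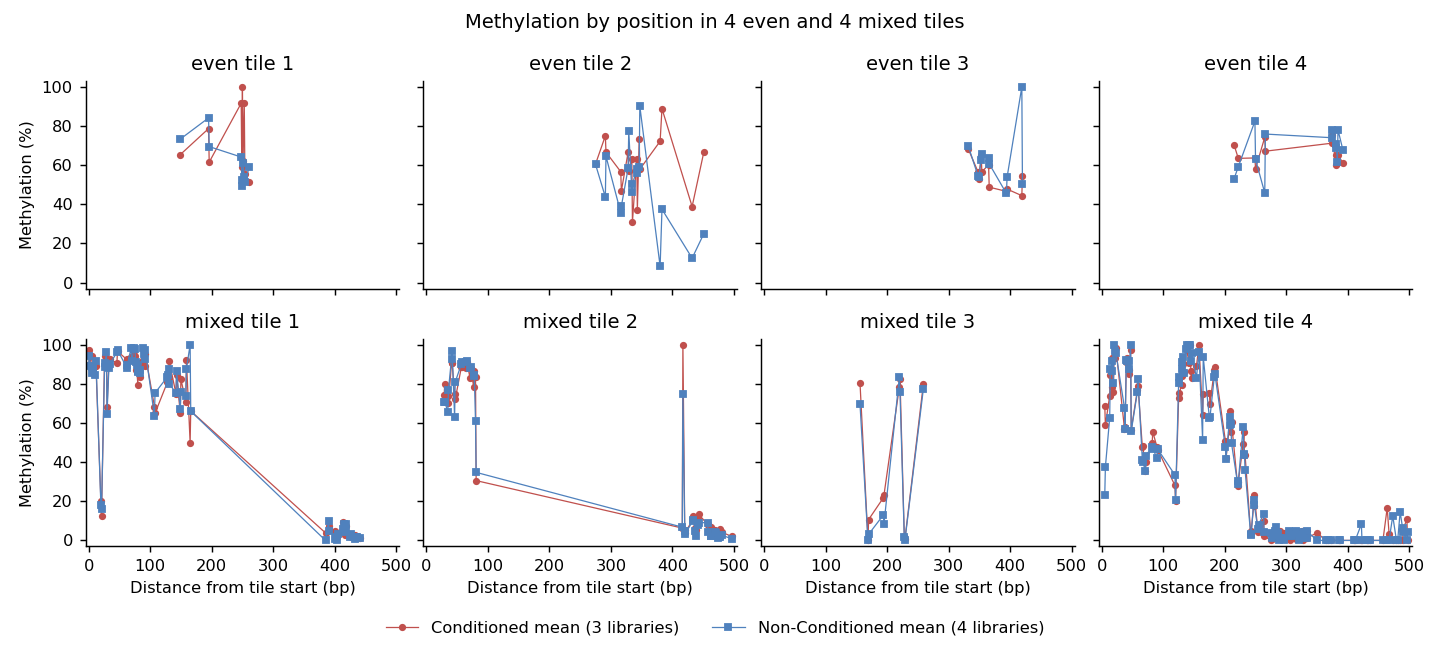
Methylation (y axis, %) by distance from the tile's start (x axis, bp) in the 4 even tiles with the lowest and the 4 mixed tiles with the highest reproducible share of position variance, as Conditioned means over 3 libraries and Non-Conditioned means over 4. Mixed tiles 1, 2 and 4 have a methylated and a mostly unmethylated stretch in both groups, mixed tile 3 alternates, and the even tiles show no step of that size. In mixed tiles 1 and 2 no position between the stretches had a value in all 7 libraries, so where the level changes there is not known.

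The measured neighbours of the tiles were most often partly methylated too. Neighbouring 500-bp tiles with at least 3 common positions counted as measured, 1119 in all. Of these, 563 (50.3%) had a level of 30 to 70%, 208 (18.6%) of 10 to 30%, 157 (14.03%) under 10% and 191 (17.1%) over 70%. Their median was 45.0%. The share at 30 to 70% was 54.6% among the neighbours of wider-range tiles, whose median was 49.3%. The neighbours of steady tiles below 30% had a median of 5.75%, and those of steady tiles above 70% had 74.9%. Of the 326 members with both neighbours measured, 96 lay between 2 partly methylated ones, 24 between one under 10% and one over 70%, 9 between 2 over 70% and 1 between 2 under 10%. The members next to a low and a high neighbour included 4 of the 20 mixed tiles with both neighbours measured. A further 278 members had no measured neighbour.

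Members also adjoined each other, in 87 runs of at least 2 tiles, 22 of them of at least 3. The longest run covered 6 tiles and 263 positions on chromosome 10, 20017001 to 20020000, and all 6 tiles were of the intermediate class. Its tile means in order of position were 64.8, 65.5, 35.7, 37.4, 26.6 and 60.2% in Conditioned libraries, against 65.1, 60.2, 33.0, 34.7, 33.4 and 63.1% in Non-Conditioned libraries. A low stretch of 3 tiles lay between higher ones in both groups.

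The share of tiles that were steady and partly methylated differed between chromosomes. It was 5.27% of tiles with at least 10 positions on chromosome 1 (254 members), the one large chromosome in the table, and 11.4, 13.1, 14.02, 13.2 and 10.2% on chromosomes 10, 11, 12, 13 and 14 (181, 185, 208, 195 and 48 members). Most of that difference lay in how many tiles were partly methylated at all: of those, 50.2% were steady on chromosome 1, against 51.6, 51.1, 61.5, 56.0 and 43.6% on chromosomes 10 to 14. Even tiles made up 17.3% of the members on chromosome 12 and 26.8 to 31.4% on the others. The outermost 500 kb of the chromosomes held 92 members (8.59%), compared with 54 wider-range tiles (5.72%) and 5.07% of all tiles.

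Steadiness among the Non-Conditioned libraries carried over to the Conditioned ones only in part. The range over the 3 Conditioned libraries had a median of 12.4 points in the members (quartiles 7.55 and 18.8, range 0.216 to 43.9), although it was taken over fewer libraries than the Non-Conditioned range. It was at most 12 points in 511 members (47.7%), against 82.4% of all 11250 tiles, most of which had low levels. In partly methylated tiles of wider range the median was 15.6 points, and 34.7% were at most 12. With 10 to 14, 15 to 24 and 25 or more positions the medians were 12.6, 11.6 and 13.2 points in members and 15.7, 15.6 and 15.4 points in wider-range tiles. Among steady tiles below 30% the median was 3.31, and among steady tiles above 70% it was 6.44. A range over 2 libraries cannot exceed that over 3, so the share at most 12 points had to grow when one was left out: it was 85.4% without library 1-2, 74.1% without library 3 and 52.8% without library 4.

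The Conditioned libraries tended to lie in one order. Library 1-2 lay a median of 5.90 points above the Non-Conditioned mean (quartiles 0.318 and 11.1), library 3 a median of 4.44 below it, written -4.44 (quartiles -8.60 and 0.064), and library 4 at -0.171 (quartiles -3.05 and 2.74). The medians of the Non-Conditioned libraries 1 to 4 were -1.30, 0.396, 0.309 and 0.667. Library 1-2 was the highest Conditioned library in 755 members (70.5%) and library 3 the lowest in 730 (68.2%). Both held in 604 members (56.4%), and in 55.2% of the wider-range tiles.

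**Figure D3:**
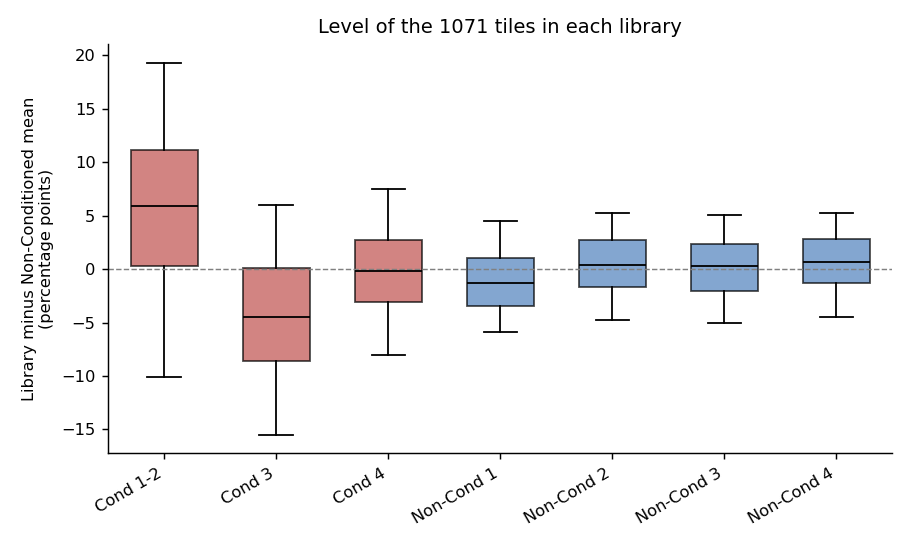
Level of each of the 1071 tiles in a library minus its Non-Conditioned mean (y axis, percentage points), for the 3 Conditioned libraries and then the 4 Non-Conditioned libraries; boxes show quartiles and medians, and whiskers the 5th to 95th percentile. Conditioned 1-2 lies above 0 with a median of 5.90, Conditioned 3 below it at -4.44, and Conditioned 4 at -0.171.

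How often a Conditioned library fell outside the Non-Conditioned range differed by library. Library 1-2 exceeded every Non-Conditioned library in 657 members (61.3%), against 29.7% of all tiles, and lay below every one in 151 (14.1%), against 14.9%. Library 3 lay below every Non-Conditioned library in 585 members (54.6%), against 57.6% of all tiles, and above in 122 (11.4%), against 4.52%. Library 4 lay above in 204 (19.05%), against 7.16%, and below in 230 (21.5%), against 42.7%. A narrow Non-Conditioned range makes it easier for another library to fall outside it, so the level of these shares is partly set by the choice of tiles.

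The offset was also seen in wider-range tiles, at 5.81, -6.26 and -0.424 points for the Conditioned libraries 1-2, 3 and 4. Removing those 3 values from the members left a median Conditioned range of 9.41 points, with 713 members (66.6%) at most 12 points, against 12.1 points and 49.7% in the wider-range tiles treated alike. Within bands of 10 to 14, 15 to 24 and 25 or more positions the corrected medians were 10.4, 9.37 and 8.46 points in members and 12.6, 11.9 and 10.4 points in wider-range tiles. This correction was chosen after the data had been seen. In steady tiles above 70% library 1-2 differed from the Non-Conditioned level by 0.036 points only, library 3 by -2.29 and library 4 by -0.923.

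The Conditioned spread was wide in even tiles and narrower in mixed ones. With the classes set again from the Non-Conditioned libraries alone, so that the Conditioned values took no part, the median Conditioned range was 17.0 points in 238 even tiles (quartiles 10.9 and 22.6), 11.7 in 764 intermediate tiles and 10.2 in 69 mixed tiles (quartiles 6.26 and 15.1). At most 12 points was found in 29.8% of even, 52.1% of intermediate and 60.9% of mixed tiles. The Non-Conditioned range, limited by the rule, ran the same way at 8.58, 7.45 and 6.93 points.

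The order of the medians was the same within a band of level and within bands of positions, taken separately. At a Non-Conditioned level of 40 to 60% the Conditioned medians were 17.6, 12.2 and 10.2 points in 180 even, 259 intermediate and 55 mixed tiles. With 10 to 14 positions they were 17.0, 11.9 and 10.7 points, with 15 to 24 positions 16.1, 10.6 and 10.4 points, and with 25 or more positions 19.6, 12.7 and 7.78 points, again for even, intermediate and mixed tiles. The wider-range tiles, in which no limit was set on the Non-Conditioned spread, had medians of 18.7, 13.6 and 11.5 points. Intermediate and mixed members were hardly apart with 15 to 24 positions. There a range of at most 12 points was found in 59.4% of 244 intermediate and 58.8% of 17 mixed members.

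**Figure D4:**
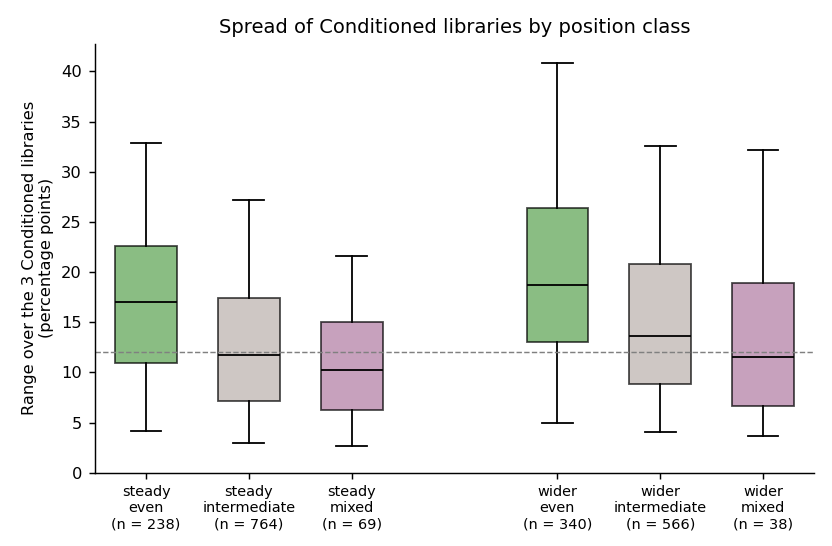
Range over the 3 Conditioned libraries (y axis, percentage points) for even, intermediate and mixed tiles, steady tiles left and wider-range tiles right, with classes set from the Non-Conditioned libraries only; boxes show quartiles and medians, whiskers the 5th to 95th percentile, and the dashed line 12 points. In both sets the even tiles have the highest median (17.0 and 18.7 points) and the mixed tiles the lowest (10.2 and 11.5 points).

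The offset of library 1-2 followed the same order. It lay a median of 8.45 points above the Non-Conditioned mean in even tiles, 5.45 in intermediate and 3.47 in mixed tiles. Library 3 lay at -6.19, -4.19 and -3.90 points, but not in that order within the bands of 10 to 14 positions (-3.81, -4.20 and -3.70) and 15 to 24 positions (-7.28, -4.11 and -5.36). Library 4 stayed near the Non-Conditioned mean, at 0.106, -0.290 and 0.411 points. At the level of single cytosines, members' positions were sorted by the Non-Conditioned level of the cytosine on the opposite strand, which is a separate measurement of the same CpG. Positions whose partner was in the middle class averaged 50.9 ± 6.14% in Conditioned and 50.3 ± 1.02% in Non-Conditioned libraries (SD, n = 3 and n = 4). Those with a high partner averaged 73.5 ± 3.06% in Conditioned and 73.5 ± 0.743% in Non-Conditioned libraries, and those with a low partner 25.3 ± 5.50% in Conditioned and 24.98 ± 0.964% in Non-Conditioned libraries. The SD of the Conditioned libraries was thus the smallest of the 3 at highly methylated positions.

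The most densely measured members show the library order directly. The tile on chromosome 10, 20061001 to 20061500, had 148 positions and 51.9, 23.9 and 36.3% in the Conditioned libraries 1-2, 3 and 4, against 34.3, 40.6, 35.3 and 38.7% in the Non-Conditioned libraries 1 to 4. On chromosome 12, 2404001 to 2404500, 147 positions gave 72.8, 51.002 and 59.6% in Conditioned and 52.0, 57.8, 55.4 and 59.9% in Non-Conditioned libraries. On chromosome 1, 155501 to 156000, 138 positions, of which 120 were middle, gave 58.5, 26.3 and 39.8% in Conditioned and 33.4, 37.5, 36.0 and 38.2% in Non-Conditioned libraries. In all of these library 1-2 was above and library 3 below every Non-Conditioned library. The Conditioned ranges were 28.1, 21.8 and 32.1 points. The Non-Conditioned ranges, limited to 12 points by the rule, were 6.23, 7.86 and 4.79 points.

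Further tiles, picked after their values were seen, mark the extremes. The even tile on chromosome 1, 393501 to 394000, with 133 positions had 57.4, 23.5 and 35.7% in Conditioned libraries, against 32.0, 34.4, 37.1 and 36.0% in Non-Conditioned libraries. The widest Conditioned range, 43.9 points, was on chromosome 10, 10720501 to 10721000 (10 positions), with 69.4, 25.6 and 41.1% in Conditioned and 31.8, 31.3, 38.6 and 38.7% in Non-Conditioned libraries. Both repeat the order of the libraries, high in 1-2 and low in 3. The steadiest tile over all 7 libraries was the first of the run on chromosome 10, 20017001 to 20017500 (29 positions), with 66.2, 64.4 and 63.8% in Conditioned and 66.3, 64.9, 64.8 and 64.5% in Non-Conditioned libraries.

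Conditioning was not followed by a shift of these tiles as a set that exceeded the spread between libraries. Their mean level was 56.0, 46.1 and 50.4% in the Conditioned libraries 1-2, 3 and 4, against 49.5, 50.97, 50.7 and 51.2% in the Non-Conditioned libraries 1 to 4. The groups averaged 50.8 ± 4.93% in Conditioned (SD, n = 3) and 50.6 ± 0.777% in Non-Conditioned libraries (SD, n = 4), a difference of 0.243 points. Both ends of the range over all libraries were Conditioned libraries, but the rule had limited the Non-Conditioned spread. In wider-range tiles, where that limit was exceeded, Conditioned libraries averaged 50.2 ± 5.84% (SD, n = 3) and Non-Conditioned libraries 50.7 ± 2.66% (SD, n = 4).

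Tile by tile, the Conditioned minus Non-Conditioned difference had a median of 0.524 points (quartiles -2.31 and 3.17, range -22.0 to 18.1). Members were higher in Conditioned libraries in 579 tiles (54.1%) and lower in 492, while among all tiles 27.7% were higher and the median was -1.14 points. The median of the members was -2.15 points without Conditioned library 1-2 and 3.19 points without Conditioned library 3, so its sign rested on single libraries. A difference of at least 10 points was found in 43 of the 1071 members, 21 higher and 22 lower. In either direction it was found in 257 of all 11250 tiles (2.28%). Most of these were steady below 30%, with a median Non-Conditioned level of 5.98%, which limits how far they can fall. In wider-range tiles, closer in level, the median difference was -0.384 points (quartiles -4.16 and 3.55).

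No member passed the test. Limma was fitted on the log2 ratio of methylated to unmethylated fraction over 18784 tiles, and at a Benjamini-Hochberg adjusted p below 0.05 it called 0 of the 1071 members and 0 of all tiles (0%). The lowest adjusted p among members in limma was 0.784. At an unadjusted p below 0.05 there were 32 members (2.99%), 13 higher and 19 lower in Conditioned libraries, against 6.01% of all tiles, of which 1.13% higher and 4.88% lower. Without Conditioned library 1-2 there were 37 members (3.45%), against 12.8% of all tiles, without Conditioned library 3 there were 51 (4.76%), against 4.56%, and without Conditioned library 4 there were 33 (3.08%), against 3.64%. The number was 13, 16, 18 and 14 without the Non-Conditioned libraries 1 to 4 (1.21 to 1.68%), against 5.26 to 5.63% of all tiles. The members' share was thus below that of all tiles in every one of these fits except the one without Conditioned library 3. With all libraries the share was 2.33% in wider-range tiles and 2.54% in steady tiles above 70%, both below that of the members. It was 8.22% in steady tiles below 30%, which were many of all tiles, so the lower share is not particular to the members. An exact permutation test per tile, two-sided over the 35 arrangements of the libraries, gave 61 members (5.7%) at an unadjusted p below 0.05, against 3.7% of all tiles. Its smallest possible p, 0.0286, leaves it practically unable to call a tile after adjustment, so it was not used for calls. Because the members were chosen for a small Non-Conditioned spread, their shares in both tests only describe them.

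Conditioned and Non-Conditioned values did not overlap in 79 members (7.38%), against 6.91% of all tiles: 33 were higher, against 1.18%, and 46 lower, against 5.73%. Leaving out a library can only raise these counts. Without Conditioned library 1-2 there were 42 higher members (3.92%), against 2.56% of all tiles, and 177 lower ones (16.5%), against 23.5%. Without Conditioned library 3 there were 161 higher members (15.03%), against 4.92%, and 66 lower ones (6.16%), against 8.18%. Without Conditioned library 4 there were 67 higher members (6.26%), against 2.62%, and 74 lower ones (6.91%), against 8.48%. Lower members outnumbered higher ones with all libraries and without 1-2 or 4, and higher ones were in the majority without library 3. The small Non-Conditioned range of the members makes non-overlap easier, so their shares are partly set by the choice of tiles. With all libraries, 26 partly methylated tiles of wider range (2.75%) did not overlap, 2 higher and 24 lower.

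Of the 3 members with the largest positive differences, the first was on chromosome 11, 15577001 to 15577500 (24 positions), with 74.3, 43.1 and 54.5% in Conditioned and 34.0, 42.3, 40.3 and 40.4% in Non-Conditioned libraries, a difference of 18.1 points. The tile on chromosome 10, 19999001 to 19999500 (10 positions), had 73.4, 75.3 and 89.2% in Conditioned and 69.2, 60.9, 62.2 and 65.5% in Non-Conditioned libraries, a difference of 14.9 points. In neither did the groups overlap, though the Conditioned values were far apart in the first. The even tile on chromosome 1, 176067001 to 176067500 (20 positions), had 66.2, 46.3 and 40.6% in Conditioned libraries, against 34.3, 35, 35.8 and 44.6% in Non-Conditioned libraries, and here Conditioned 4 lay below Non-Conditioned 4.

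The largest negative difference, -22.0 points, was on chromosome 11, 17921501 to 17922000 (12 positions), with 9.99, 45.9 and 20.4% in Conditioned and 46.0, 47.5, 43.6 and 52.5% in Non-Conditioned libraries. Its Conditioned library 3 lay among the Non-Conditioned values. The even tile on chromosome 12, 9208001 to 9208500 (23 positions), had 25.7, 42.9 and 38.5% in Conditioned libraries, against 49.2, 59.4, 52.5 and 60.7% in Non-Conditioned libraries, a difference of -19.7 points. The tile on chromosome 10, 1044501 to 1045000 (14 positions), had 35.6, 49.0 and 47.9% in Conditioned and 57.4, 66.0, 57.2 and 66.6% in Non-Conditioned libraries, a difference of -17.7 points. In these last 2 tiles the groups did not overlap and library 1-2 was the lowest Conditioned library, against its usual place.

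On the log2 ratio scale the 3 higher tiles had differences of 0.99 (SE 0.40), 0.99 (SE 0.34) and 0.74 (SE 0.35), and the 3 lower tiles -1.40 (SE 0.52), -1.07 (SE 0.30) and -0.95 (SE 0.28), in the order given above. The adjusted p from limma was 0.784 for each of the 6. All were picked as the extremes of 1071 differences, and none passed that correction.

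**Figure D5:**
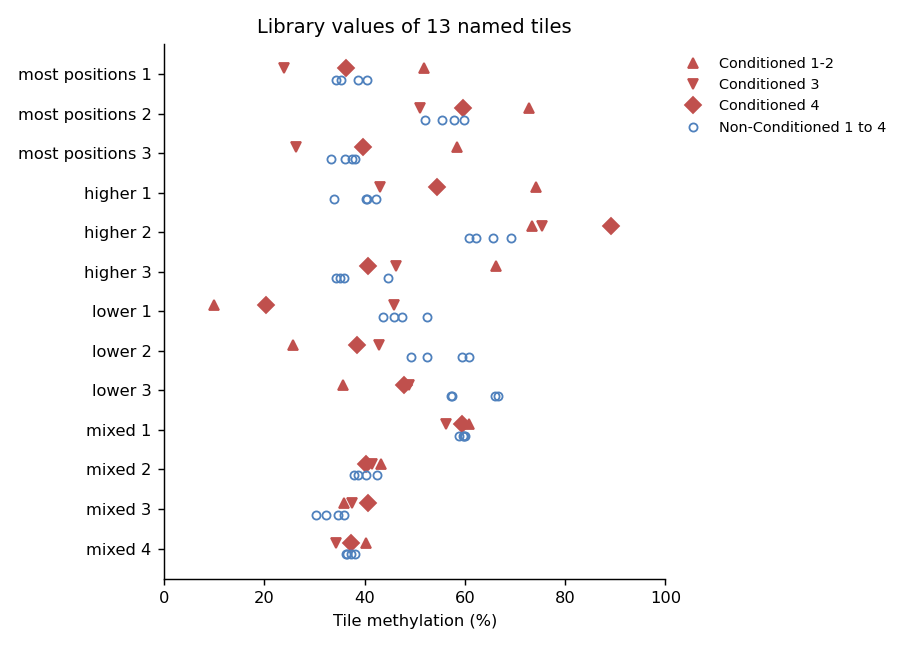
Tile methylation (x axis, %) in the 3 Conditioned libraries (filled symbols) and the 4 Non-Conditioned libraries (open circles) for the 3 members with the most positions, the 3 with the largest positive and negative differences and the 4 mixed tiles, numbered in the order of the text or, for mixed tiles, of their reproducible share. Conditioned 1-2 and Conditioned 3 flank the Non-Conditioned values in the most densely measured tiles, and the Conditioned libraries lie closer together in the 4 mixed tiles. Those 4 were picked for the highest reproducible share, so they need not stand for the other mixed tiles.

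The authors' deposited table of tested segments covered part of these tiles. It held 510 segments that lay wholly inside a member, spread over 385 members. Of these segments, 0 had a q-value below 0.05 in the authors' deposited table, against 362 of its 53008 segments (0.683%). That share was itself low, so the 0 is not read as a result about the members. Segments overlapped 468 members, and those reaching beyond a member were not read. Within members, the lowest q-value in the authors' deposited table was 0.114, for a segment on chromosome 12, 9208216 to 9208413. It lay inside one of the lower tiles above, and its deposited count of CpGs, 23, equalled the 23 cytosine positions of that tile. Its deposited means were 35.7% in Conditioned and 55.4% in Non-Conditioned chicks. Among the 510 segments, the means of the authors' deposited table were higher in Conditioned chicks in 323 (63.3%) and lower in 187, whereas 77.6% of all its segments were lower. All its segments were not matched to the members in level or in chromosome. The segments rest on the same libraries as the tiles, so their direction is not a separate measurement.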

How the data were processed

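Percent methylation per cytosine and library was taken as deposited. Per the submitters' processing notes Trimmomatic, Bismark 0.22.3, Bowtie and HOMER were used with build galGal5, in an order and with read minimums not given in the sources used here. Libraries were made from 15 to 30 ng of DNA, per the labels' protocols. Other chromosomes and the rest of chromosome 14 were not analysed here, because the site table ends there. Segment means in percent, their difference as a score, the count of CpGs and the p-values and q-values were the authors' own, per the file headers. The headers label the p-values MWU and KS, and the test behind the q-values was not given in the sources used here.

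Positions with a value in all 7 libraries were averaged in 500-bp tiles, each position once and with no scaling between libraries. The tiles and all lists were chosen with earlier results of these data known, so no p was computed over them. Position classes, reproducible share, breaks and neighbours were computed as described with each result. Limma 3.58.1 (R 4.3.3, eBayes with trend) was fitted to log2((f + 0.05)/(1 - f + 0.05)), f being the methylated fraction, over 18784 tiles with at least 3 common positions and a mean of 2 to 98%, 3 Conditioned against 4 Non-Conditioned libraries without covariates, with Benjamini-Hochberg adjustment over all of them. The fit and the position measures were also run on simulated data, with the outcome not given here. How large a change the fit could call is therefore not stated. All other values came from Python 3.11.15 with scipy 1.17.1, pandas 2.3.3 and numpy 2.4.6. Alternatives covered the limits of the rule and of the classes, tile start, strand averaging, offset, filters, centring, each library left out and a replicate block. The tiles named were, by a rule, the 4 even and the 4 mixed members of lowest and highest reproducible share, the 3 largest differences in each direction, the 3 members with the most positions and tiles on either side of each limit; others are said to be picked after their values were seen. No genome or annotation of galGal5 was used, so neither sequences nor genes are given. Intervals on shares of tiles are exact binomial intervals at 95%.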

Additional observations from a re-analysis of the deposited data

Results flagged for a closer look

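In 3 of 40 sets of 4 Non-Conditioned values examined, 1 library stood apart from the other 3, its gap to the nearest taking most of the whole range; chance alone gives about 1 in 20, or 2 of 40. On chromosome 1, 176067001 to 176067500, Non-Conditioned library 4 (44.6%) lay above libraries 1 to 3 (34.3, 35 and 35.8%), with a gap of 0.854 of the range. On chromosome 13, 2430501 to 2431000, an even tile with 123 positions, Non-Conditioned library 1 (42.9%) lay below libraries 2 to 4 (50.2, 49.7 and 49.0%), with a gap of 0.840 of the range, while the Conditioned libraries 1-2, 3 and 4 had 63.3, 40.5 and 45.5%. In the mean over the 944 partly methylated tiles of wider range, Non-Conditioned library 1 (46.8%) lay below libraries 2 to 4 (52.1, 51.6 and 52.5%), with a gap of 0.845 of the range. Library 1 was the lowest Non-Conditioned library in 421 of the 1071 steady tiles, where its median offset was -1.30 points.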

How the results depend on the processing

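The number of steady tiles, 1071, was 576 with a range of at most 8 points, 494 at levels of 40 to 60%, 1877 at 20 to 80%, 522 with at least 20 positions and 585 with both strands averaged; the 7 other alternatives kept it within 1.5 times. The even share of 26.8% was 29.8% with at least 6 positions, 19.3% with at least 20, 29.9% with both strands averaged, 22.2% in Non-Conditioned libraries only and 29.2 to 30.9% without one Non-Conditioned library. Classes at 20 and 80% gave 52.3% even and 2.15% mixed, classes at 30 and 70% gave 10.6% and 11.2%, limits of 70 and 25% gave 49.4% and 1.96%, and limits of 90 and 10% gave 10.7% and 21.8%. The mixed share of 4.67% was 6.57% with at least 6 positions, 6.44% in Non-Conditioned libraries only and 4.34 to 4.75% without one Non-Conditioned library. The median reproducible share of 0.137 was 0.129 within Conditioned and 0.150 within Non-Conditioned libraries. The share of tiles with a Conditioned range of at most 12 points, 47.7%, was 52.8 to 85.4% without one Conditioned library and 66.6% with library offsets removed. Steps of at least 20 points were found in 50.6% of tiles, not 54.9%, with the break placed in Non-Conditioned libraries.

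Limma called 0 members in the main fit and in its 14 alternatives. The 32 members at an unadjusted p below 0.05 became 13 to 51 without one library and 61 by the exact permutation test per tile, which could hardly call a tile after adjustment. With the replicate block there were 20 and 0 were called; same-numbered libraries did not deviate together (r = 0.009 for number 3 and 0.001 for number 4), so the numbers are not taken to pair the samples. Non-overlap, 79 members, was 98 to 227 without one library (219, 227 and 141 without the Conditioned libraries 1-2, 3 and 4). The median Conditioned minus Non-Conditioned difference of 0.524 points was -2.15 to 3.19 without one library, 0.793 with centring matched on level and 0.592 with median centring. The cause of these changes was not tested. Read depth was not given, so the error of a single percentage is unknown, and the 3 Conditioned libraries limit every comparison.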
